A study of Mus musculus with 16 samples.

Results

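Border-associated macrophages are the macrophages of the meninges, the perivascular spaces, and the choroid plexus. Among their best known marker genes, *Mrc1*, *Cd163*, *Lyve1*, *Pf4*, *F13a1*, *Ms4a7*, *Stab1*, *Cbr2*, *Folr2*, and *Clec12a*, were followed here through RNA-Seq of CD11b+ brain cells. They were picked by name and make up 10 of 24421 rows of the count table. All 10 passed the filter on low counts (more than 10 counts in at least 4 libraries), which kept 14565 genes. The libraries come from female C57BL/6J mice, 1 mouse each, in 3 groups. The 4 CON mice ate a standard diet and the 5 MAL mice an isocaloric diet low in protein and fat, from weaning for about a month. The 7 MAL-BG mice ate the same low diet and were also gavaged with a mix of *E. coli* and Bacteroidales species, where the others received PBS. Cells were pulled from dissociated brain with magnetic CD11b beads. The labels name cortical tissue and the Methods whole cerebra, and neither says whether meninges or choroid plexus were removed.

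These macrophages and the microglia of the parenchyma share a yolk sac origin and CSF1R dependence, but differ in position and in the receptors they carry. *Mrc1* (the mannose receptor CD206), *Cd163* (the receptor for haptoglobin and hemoglobin), *Lyve1* (a hyaluronan receptor), and *Stab1* (stabilin-1, a scavenger receptor) serve uptake of ligands from the fluid and matrix around vessels. *Folr2* codes for folate receptor beta, *Clec12a* for an inhibitory C-type lectin receptor of myeloid cells, and *Ms4a7* for a tetraspanning membrane protein. *Pf4* (CXCL4, a chemokine also abundant in platelets), *F13a1* (the A subunit of coagulation factor XIII, also made by monocytes and platelets), and *Cbr2* (a carbonyl reductase) complete the set. None is restricted to border macrophages in every setting, and *Stab1* and *Clec12a* are also known from microglia or from neutrophils and monocytes.

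RefSeq promoter entries on GRCm38.p6, which run from 250 bases before to 50 bases after a transcript start, were found for 9 of the 10 genes (12 entries). The bases just before the start are shown for *Mrc1*, *Pf4*, and *Ms4a7*, whose levels had the highest correlations with each other within groups, and for *F13a1*, the member called in both MAL-BG comparisons. They are given on the strand of the gene, and capitals mark GAGGAA, the core letters bound by the myeloid factor PU.1, or its longer form GAGGAAGT, on either strand (TTCCTC and ACTTCCTC when read on the other strand).
Mrc1, chr2:14229214-14229413, plus strand: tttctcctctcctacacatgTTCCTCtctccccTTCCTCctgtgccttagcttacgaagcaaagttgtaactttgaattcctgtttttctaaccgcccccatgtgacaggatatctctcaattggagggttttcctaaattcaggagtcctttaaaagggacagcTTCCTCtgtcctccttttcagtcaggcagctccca
Pf4, chr5:90772235-90772434, plus strand: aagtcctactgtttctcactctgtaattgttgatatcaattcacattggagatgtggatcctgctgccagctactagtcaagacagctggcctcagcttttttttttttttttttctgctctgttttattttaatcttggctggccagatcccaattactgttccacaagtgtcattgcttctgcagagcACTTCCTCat
Ms4a7, chr19:11336147-11336346, minus strand: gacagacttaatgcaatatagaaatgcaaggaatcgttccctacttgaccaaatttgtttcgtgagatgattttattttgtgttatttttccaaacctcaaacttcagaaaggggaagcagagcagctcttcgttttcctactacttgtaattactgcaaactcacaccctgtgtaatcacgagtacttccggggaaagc
F13a1, chr13:37050245-37050444, minus strand: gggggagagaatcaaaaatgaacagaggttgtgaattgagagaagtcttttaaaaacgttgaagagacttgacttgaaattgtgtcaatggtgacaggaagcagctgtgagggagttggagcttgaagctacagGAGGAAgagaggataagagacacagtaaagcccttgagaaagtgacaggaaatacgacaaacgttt

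GAGGAA stood in 8 of the 12 full entries (7 of 9 genes), beside 28.3% of 32851 mouse promoter entries of the same length. *Mrc1* held it 3 times, and in *Ms4a7* it lay after the start, outside the bases printed. The longer GAGGAAGT, which contains GAGGAA, was found for *Pf4* and in a second entry of *F13a1* (3.2% of all entries). The MAF recognition letters TGCTGAC was found in *Cbr2* (4.67% of all entries) and the AP-1 site TGACTCA in *Folr2* (5.2%). These are matches of letters and say nothing of binding.

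In these genes, 2 libraries stood apart. CON library 1 held the highest CON value for 9 of 10 members (37% of all genes tested), and MAL library 4 the highest MAL value for 9 of 10 (31.9%). For 8 of 10 they were the 2 highest of all 16 libraries, beside 3.81% of all genes tested. In CON library 1, 8 of 10 members were at least 2-fold above the mean of the other CON libraries (3.81% of genes tested), and in MAL library 4, 6 of 10 were so against the other MAL libraries (2.14%). The summed CPM (counts scaled to library size, with sizes adjusted by the TMM method) of the 10 genes was 2340 in CON library 1 against 855 to 990 in the other CON libraries, and 2108 in MAL library 4 against 1038 to 1250. Without *Stab1*, the highest of them, the sum was 682 against 249 to 390 and 857 against 283 to 395. Microglia markers moved less, with a summed CPM of 25114 against 16068 to 21113 in CON and 27523 against 16314 to 22134 in MAL. The summed neutrophil list was also high, at 1235 against 494 to 637 in CON and at 1106 against 524 to 792 in MAL. *Csf3r* alone was 1118 CPM of this sum in CON library 1 and 758 in MAL library 4, so it is not a measure of neutrophils alone. *S100a8*, the first gene of that list, was at 22.3 CPM against 15.8 to 41.8 in CON and at 66.4 against 12 to 50.8 in MAL. The MHC class II genes were high as well (2353 against 1164 to 2022 and 4343 against 1669 to 2627). Inhibitory receptor genes (4666 against 2922 to 3570 and 4883 against 3044 to 4151) and the summed dendritic cell list (814 against 622 to 748 and 879 against 609 to 791) rose less. Most of the dendritic cell sum was *Siglech*, which is also on the microglia list (706 CPM in CON library 1 and 750 in MAL library 4). That sum is therefore not a measure of dendritic cells. Choroid plexus epithelium markers moved the other way, at 14046 against 28443 to 54475 and at 6520 against 12541 to 42867. Brain endothelium markers were also low, at 807 against 1572 to 2700 in CON and at 704 against 1390 to 2025 in MAL, as were the sums of the meningeal fibroblast list (247 against 627 to 945 and 200 against 254 to 669), the lymphatic endothelium list (23.2 against 48 to 64 and 23.1 against 29.6 to 54), and the monocyte list (1285 against 1877 to 2333 and 1473 against 1748 to 1997). Most of the fibroblast sum in CON was *Igfbp2* (mean 503 of 664 CPM), which was at 191 in CON library 1 and at 91.7 in MAL library 4. *Col1a1*, the first gene of the fibroblast list, was low in CON library 1 (4.07 CPM against 5.36 to 26.9) but highest of MAL in MAL library 4 (16.5 against 5.65 to 13.2). The folate and hyaluronan lists described below also had their lowest CON and MAL sums in these libraries. Whether the makeup of these cell suspensions set the member levels was not tested. The members' comparisons are therefore given with and without both libraries, and so are the counts of gene lists that changed, a choice made after the data were seen.

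**Figure D1:**
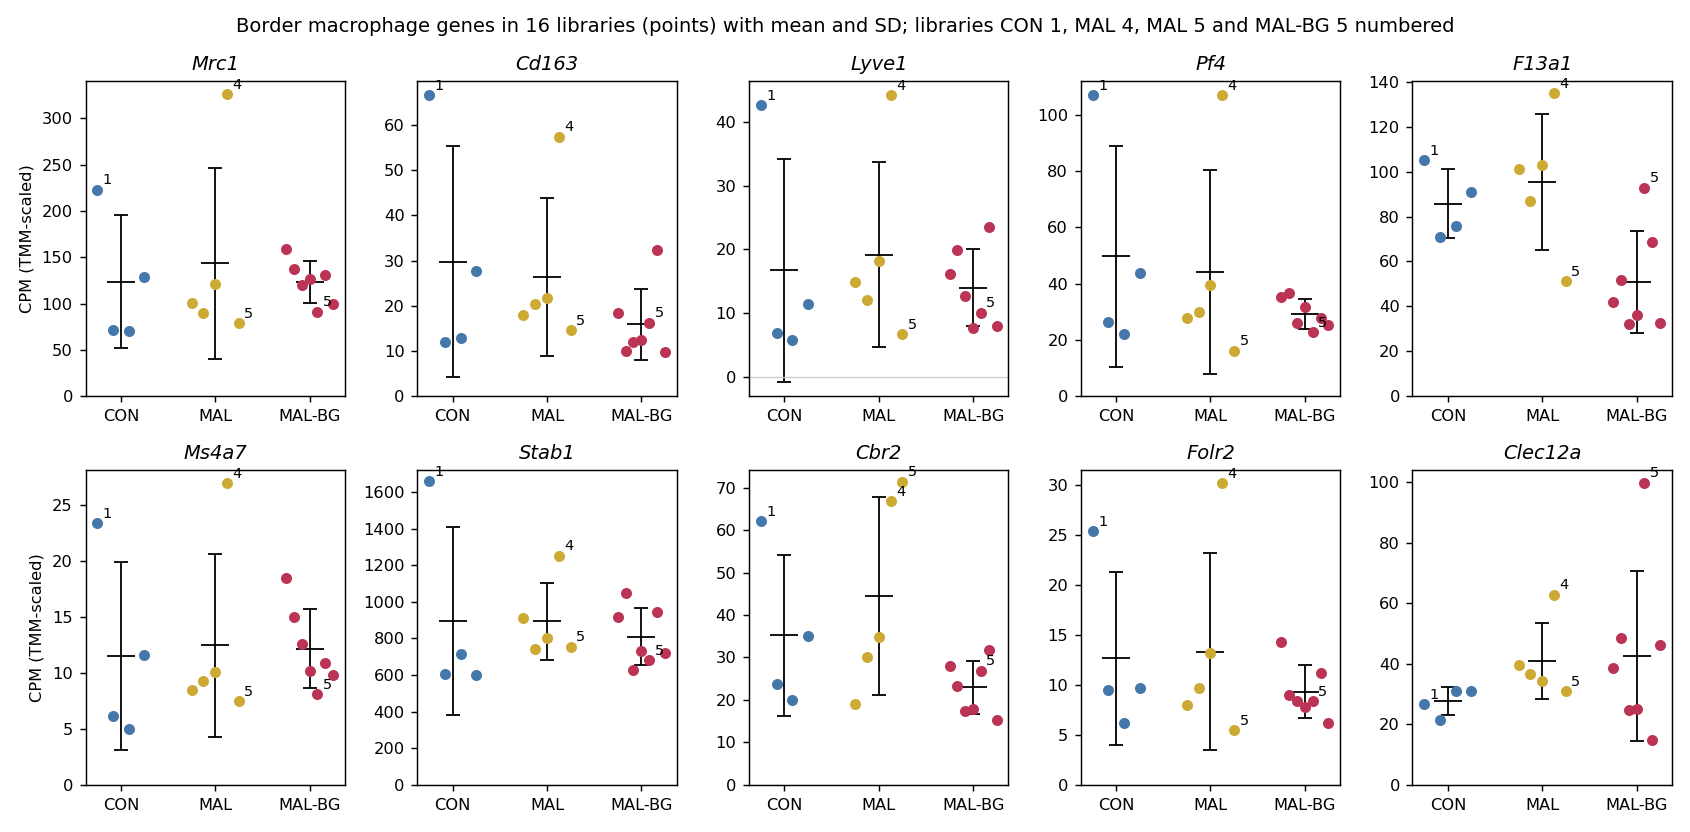
TMM-scaled CPM (y axis, linear, from 0 or just under it) of the 10 genes in each of 16 libraries, by group (x axis), with bars for the mean and SD. CON library 1 and MAL library 4, which are numbered, lie above the rest of their groups for most genes, while the MAL-BG points spread less for *Mrc1*, *Pf4*, and *Folr2*.

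*Mrc1* was at 223, 71.2, 70.9, and 129 CPM in the CON libraries and at 101, 90.2, 121, 326, and 78.9 in MAL. In MAL-BG it ran from 91.4 to 159 with a median of 127. The 7 MAL-BG values fell inside the span of the other groups, and the group means of CON and MAL-BG were alike (124 ± 71.8, SD, n = 4, and 124 ± 22.8, n = 7). Without CON library 1 the CON mean was 90.4 ± 33.4 CPM (SD, n = 3).

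*Cd163* was at 66.6, 12, 12.8, and 27.7 CPM in CON, at 18, 20.3, 21.8, 57.4, and 14.6 in MAL, and between 9.87 and 32.4 in MAL-BG (median 12.4). The MAL-BG mean of 15.9 ± 7.95 (SD, n = 7) lay under the CON mean of 29.8 ± 25.6 (n = 4), but near the mean of 17.5 ± 8.84 (n = 3) that CON had without library 1. One animal, MAL-BG library 6, held the highest MAL-BG value.

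*Lyve1* was at 42.6, 6.96, 5.91, and 11.4 CPM in CON and at 14.9, 12.1, 18.2, 44.1, and 6.77 in MAL. It spanned 7.72 to 23.5 in MAL-BG, with a median of 12.8. All 7 MAL-BG values were above 2 of the 4 CON values and below CON library 1 and MAL library 4, so the groups overlapped.

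*Stab1* was the most abundant member. It was at 1658, 607, 717, and 600 CPM in CON, at 912, 743, 805, 1252, and 755 in MAL, and between 627 and 1047 in MAL-BG (median 733). Without CON library 1 and MAL library 4, the CON mean was 641 ± 65.5 (SD, n = 3) and the MAL mean 804 ± 77 (n = 4). In the annotation, 112 bp of its exons lie opposite an exon of *Nt5dc2*, and whether strand was used in counting is not given in the sources used here.

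*Folr2* was at 25.4, 9.46, 6.15, and 9.69 CPM in CON, at 8, 9.7, 13.2, 30.2, and 5.49 in MAL, and between 6.23 and 14.3 in MAL-BG (median 8.41). Outside CON library 1 and MAL library 4, the 14 libraries of all groups lay between 5.49 and 14.3. Its exons share 975 bp with the antisense gene *Gm10602*, and reads of the pair may not be told apart.

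*Ms4a7* was at 23.4, 6.12, 4.97, and 11.6 CPM in CON and at 8.51, 9.32, 10.1, 27, and 7.49 in MAL. In MAL-BG it ran from 8.14 to 18.5, with a median of 10.9. All 7 MAL-BG values lay above CON libraries 2 and 3 and below CON library 1.

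*Clec12a* was at 26.7, 21.6, 31.1, and 31.2 CPM in CON and at 39.5, 36.8, 34.5, 62.9, and 30.9 in MAL, and CON library 1 was not high. In MAL-BG it spread from 14.9 to 99.9 (median 38.5), and the 99.9 came from MAL-BG library 5. That library also had a summed CPM of 14284 for neutrophil markers, against 602 to 3453 in the other MAL-BG libraries and 494 to 1235 in CON and MAL. The log2 fold change of *Clec12a* against CON was 0.62 with that library and 0.23 without it.

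*Pf4* was at 107, 26.4, 22, and 43.6 CPM in CON, at 27.9, 29.9, 39.4, 107, and 16.2 in MAL, and between 22.7 and 36.7 in MAL-BG (median 27.8). The MAL-BG values lay within the lower part of both other groups. The platelet marker *Ppbp* did not exceed 1.41 CPM in any library and *Gp6* was at 0 counts in all 16, while *Gp9* was between 17 and 47.8 CPM, and CON library 1 and MAL library 4 were near 23 and 25 CPM for it.

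*F13a1* was at 105, 71, 76, and 90.8 CPM in CON, at 101, 87.1, 103, 135, and 51.2 in MAL, and between 32.3 and 92.9 in MAL-BG (median 41.9). Of the 7 MAL-BG libraries, 6 were below the lowest CON library, and the exception was MAL-BG library 5. That library had the highest summed CPM of the monocyte marker list in MAL-BG (2144 against 519 to 1281), beside its neutrophil markers. *Chil3* (661 CPM) and *Cd177* (256 CPM) were large parts of its sum, while *Ccr2* was at 68.1 against 39.1 to 66.3. In CON and MAL the list's sum was 1285 to 2333, above the 6 other MAL-BG libraries. Most of the CON mean came from *Nr4a1* (993 CPM), *Ace* (349), and *Fn1* (256), so the sum is not a measure of monocytes alone. Its part in the *F13a1* values was not tested. CON library 1 and MAL library 4 were only 1.32-fold and 1.58-fold above the mean of their groups' other libraries.

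*Cbr2* was at 62.1, 23.7, 20.1, and 35 CPM in CON, at 19, 30.1, 34.8, 66.8, and 71.4 in MAL, and between 15.3 and 31.8 in MAL-BG (median 23.4). The highest value came from MAL library 5, which was the lowest MAL library for 8 of the other members (*Stab1* was lowest in MAL library 2). All 7 MAL-BG values were below the 5 highest of the other groups but overlapped the rest.

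The comparison of MAL-BG with CON asked whether diet and bacterial exposure together changed these genes. With edgeR's quasi-likelihood test (a call needs an adjusted p below 0.05 with a log2 change of over 0.58 either way), 1 of 10 members was called, lower in MAL-BG, beside 33.1% of all genes tested (21.7% lower, 11.4% higher). *F13a1* fell by 0.75 on the log2 scale (SE 0.28, adjusted p = 0.0376), a call that was lost in 8 of the 16 fits that left out 1 library (adjusted p up to 0.106) and under offsets for length and GC content with scaling. Of the others, *Cd163* was at −0.91 (SE 0.465, adjusted p = 0.122), *Pf4* at −0.76 (SE 0.436, adjusted p = 0.164), and *Cbr2* at −0.62 (SE 0.347, adjusted p = 0.157). None of these passed the test against the spread between mice. *Clec12a* was at 0.62 (SE 0.379, adjusted p = 0.191), and *Mrc1*, *Lyve1*, *Ms4a7*, *Stab1*, and *Folr2* lay between −0.44 and 0.08. The members' median log2 fold change was −0.35, and that of all genes −0.04. In no member did the 7 MAL-BG libraries lie apart from the 4 CON libraries, beside 9.83% of genes with MAL-BG wholly higher and 11.1% wholly lower. In bulk RNA, fewer cells of a type and less RNA per cell cannot be told apart.

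These values changed when CON library 1 and MAL library 4 were left out. *Cd163*, *Pf4*, and *Cbr2* came to −0.05, 0.01, and −0.11 on the log2 scale, and *F13a1* to −0.56 (adjusted p = 0.143), so it was no longer called. *Ms4a7* was then called, higher in MAL-BG (0.76, adjusted p = 0.0383), beside 39.1% of 14513 genes tested. *Lyve1* was at 0.88 (adjusted p = 0.0764), *Mrc1* at 0.53 (adjusted p = 0.0515), and *Stab1* at 0.42 (adjusted p = 0.0505). The members' median was 0.32. Leaving out MAL-BG library 5 as well brought *F13a1* back (−0.77) with *Mrc1* (0.59) and *Ms4a7* (0.84), 3 called members in all beside 39.8%.

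The comparison of MAL-BG with MAL asked what the bacterial exposure added on the same diet. It called 2 of 10 members, both lower in MAL-BG, beside 30.4% of genes tested (20.2% lower, 10.2% higher). *F13a1* fell by 0.90 (SE 0.263, adjusted p = 0.0109) and *Cbr2* by 0.95 (SE 0.325, adjusted p = 0.0255). *Cd163* was at −0.73 (adjusted p = 0.187), *Pf4* at −0.59 (adjusted p = 0.254), *Folr2* at −0.51 (adjusted p = 0.295), and *Clec12a*, at 0.06, was the only member above 0. The members' median was −0.48, and that of all genes −0.03. No member separated the 7 MAL-BG from the 5 MAL libraries, beside 7.86% of genes wholly higher and 8.95% wholly lower. Without CON library 1 and MAL library 4, 0 of 10 were called beside 35.6% of genes, with *F13a1* at −0.69 (adjusted p = 0.0522) and *Cbr2* at −0.69 (adjusted p = 0.0676). The call of *F13a1* held when any 1 library was left out but not under offsets with scaling (−0.58, adjusted p = 0.0909), and that of *Cbr2* was lost without MAL library 4 (−0.76, adjusted p = 0.0767), MAL library 5 (−0.71, adjusted p = 0.102), or MAL-BG library 2, 4, or 7 (−0.90, −0.85, and −0.81). This comparison and the one with CON share the 7 MAL-BG libraries.

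The comparison of MAL with CON asked what the diet did alone. Here 0 of 10 members and 0 of 14565 genes were called by edgeR or DESeq2, and 212 genes (1.46%) had an unadjusted edgeR p under 0.05, none of them a member. The lowest member p was 0.178, for *Clec12a* (0.56 on the log2 scale, SE 0.401). The standard errors of *Cd163*, *Lyve1*, and *Pf4* were 0.505, 0.574, and 0.474, so changes of that size could not be detected at this spread. Without CON library 1 and MAL library 4, 0 of 10 members and 0 of 14513 genes were called, and the members lay between −0.1 (*Pf4*) and 0.70 (*Lyve1*), with the lowest unadjusted p at 0.0745 (*Stab1*).

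**Figure D2:**
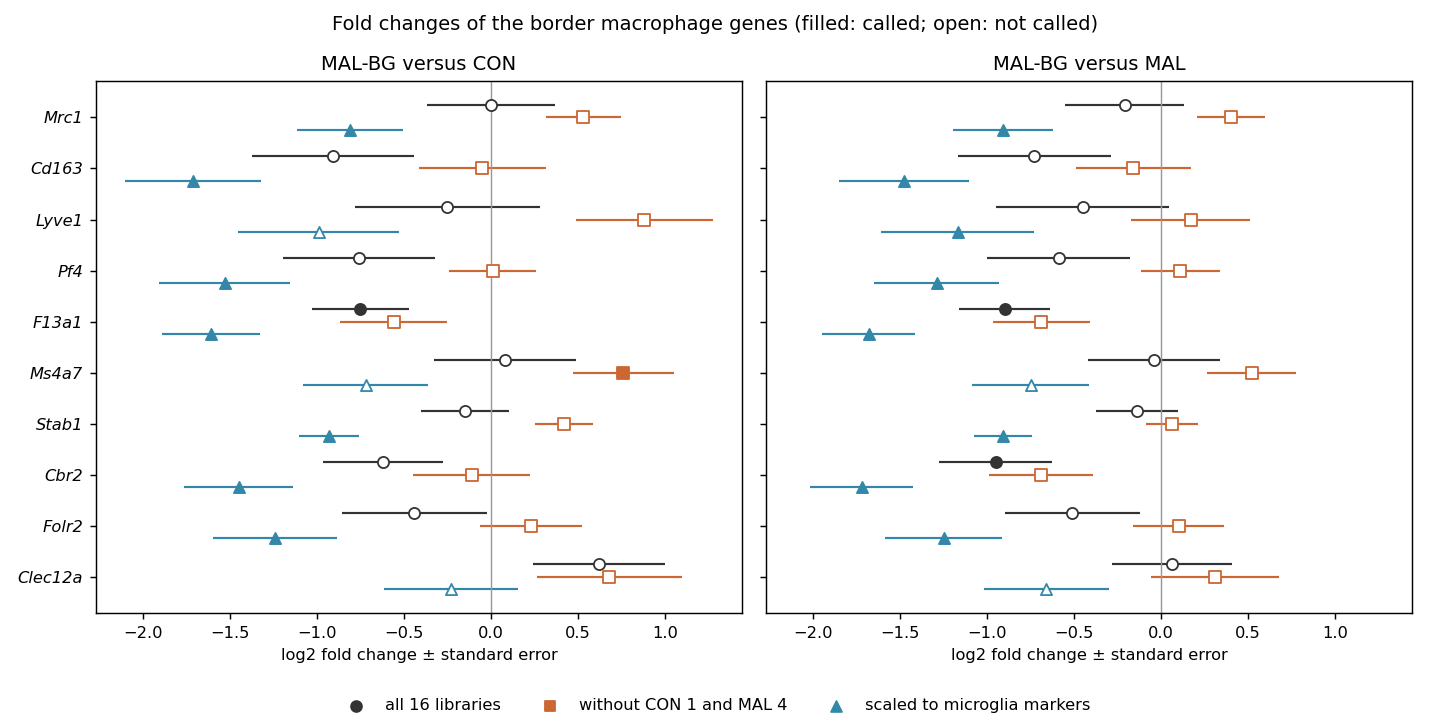
Log2 fold changes (x axis) with standard errors for each gene (y axis) in both MAL-BG comparisons, from all 16 libraries (circles), without CON library 1 and MAL library 4 (squares), and after scaling to microglia markers (triangles). Filled symbols were called. *F13a1* stays below 0 in each setting, while *Mrc1*, *Lyve1*, and *Stab1* change sides.

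The values also depended on the scaling. Of 12 microglia markers, 8 were called higher in MAL-BG than in CON, among them *Tmem119* (1.08), while *P2ry12* was at 0.38 and *Sall1* at 0.32. When libraries were scaled to these markers, all 10 members were below 0 and 7 were called lower than CON (8 against MAL), beside 65.7% and 60.7% of all genes. This scaling moved the median of all genes to −0.905 against CON and −0.811 against MAL, where the members' medians were −1.11 and −1.21. On this scale *Cd163* was at −1.71 and *F13a1* at −1.61.

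Per kb of exon, *Stab1* stood first with 83.3 ± 26.8 CPM per kb (SD over 16 libraries), followed by *Pf4* (54.2 ± 38.1), *Cbr2* (24.7 ± 13.6), *Mrc1* (20.4 ± 10.1), and *F13a1* (10.9 ± 4.52). *Folr2* (7.39 ± 4.45), *Clec12a* (6.93 ± 3.63), *Lyve1* (5.59 ± 4.01), *Cd163* (4.15 ± 3.05), and *Ms4a7* (2.72 ± 1.37) followed. *Stab1* was above *Pf4* in 14 of 16 libraries and *Pf4* above *Cbr2* in 15, whereas *Cbr2* was above *Mrc1* in 9 and *Folr2* above *Clec12a* in 9. The order of *Cbr2* and *Mrc1* varied by group, with *Cbr2* above in 4 of 4 CON, 3 of 5 MAL, and 2 of 7 MAL-BG libraries. *Folr2* was above *Clec12a* in 3 of 4, 2 of 5, and 4 of 7. Together the 10 genes took 0.0884% to 0.226% of a library's counts, and the lowest single value was 63 counts (*Ms4a7*).

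**Figure D3:**
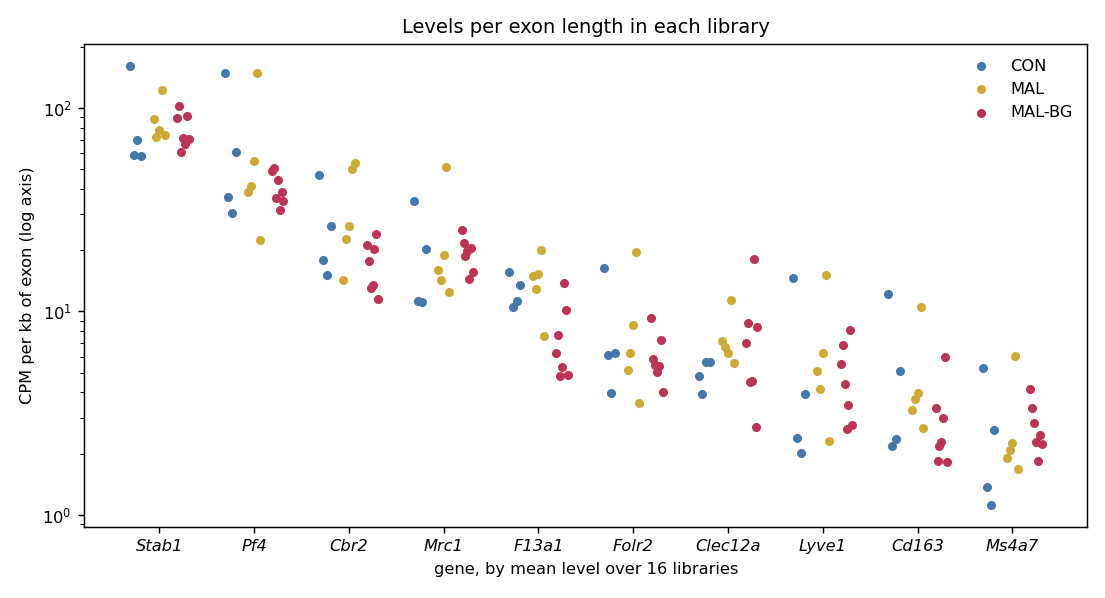
CPM per kb of exon (y axis, log scale) for each gene (x axis, ordered by the mean over 16 libraries), 1 point a library, coloured by group. *Stab1* and *Pf4* lead, and the neighbours *Cbr2* and *Mrc1* overlap.

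Within groups, 6 members ran together from mouse to mouse, a grouping that was not set in advance. Pearson's r of log2 CPM, after the group mean was taken off, was between 0.781 and 0.967 for the 15 pairs among *Mrc1*, *Cd163*, *Lyve1*, *Pf4*, *Ms4a7*, and *Folr2* over 16 libraries. The same pairs had r between 0.373 and 0.898 (median 0.687) over the 14 libraries without CON library 1 and MAL library 4. Over all 45 pairs of members the median r was 0.625, and 0.279 without both libraries. The pairs share their libraries and depth, and no p is given. The closest pairs were *Mrc1* with *Pf4* (0.967) and *Mrc1* with *Ms4a7* (0.961). *Clec12a* stood outside, with r between −0.007 and 0.427 to the other 9. *F13a1* was in between, at 0.287 to 0.625. *Stab1* had r of 0.715 to 0.845 with the 6, so it was not clearly apart from them over 16 libraries. Without both libraries its r with them was 0.168 to 0.55. *Cbr2* had r of 0.481 to 0.687 with the 6, and −0.129 to 0.417 without both libraries.

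**Figure D4:**
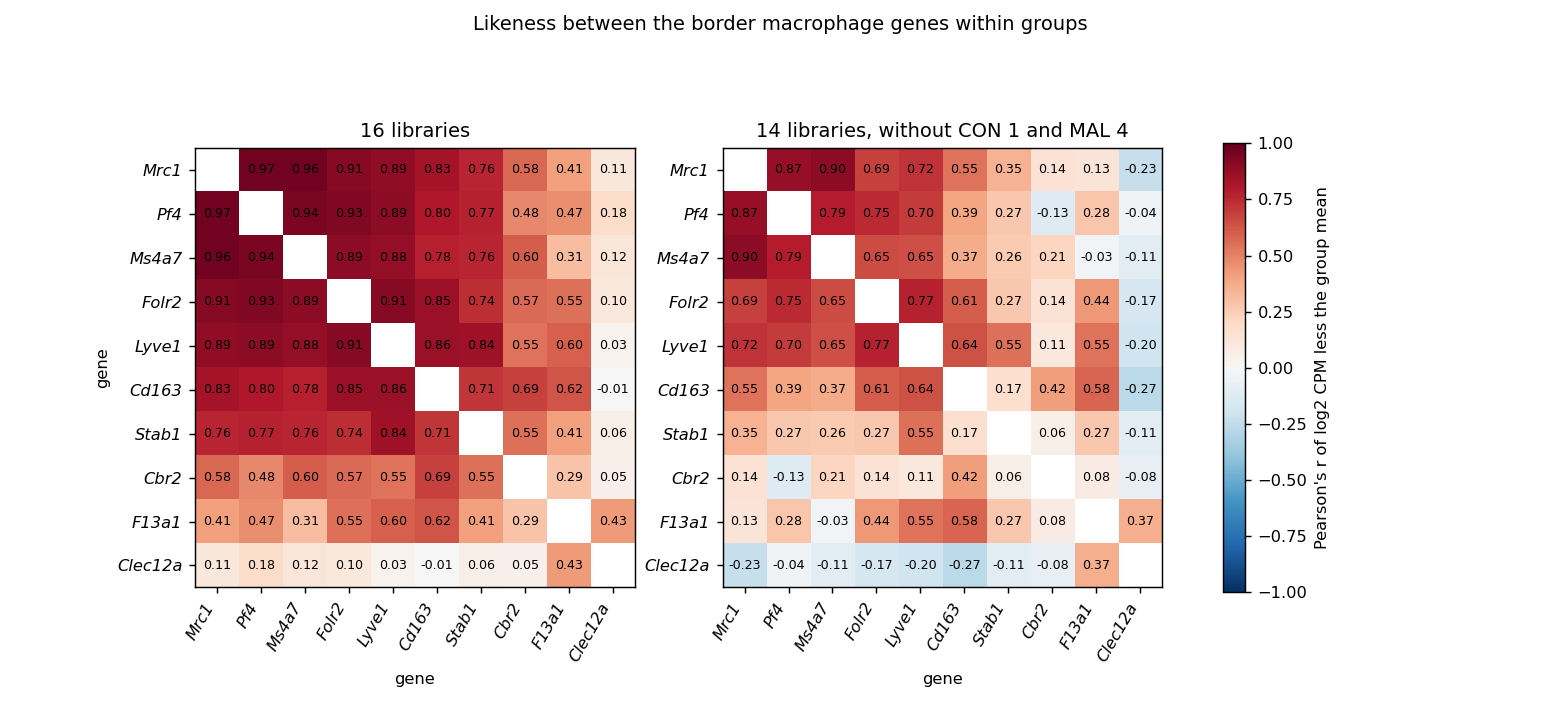
Pearson's r between members (colour and printed value) of log2 CPM less the group mean, over 16 libraries (left) and over 14 without CON library 1 and MAL library 4 (right). On the right, *Mrc1*, *Pf4*, *Ms4a7*, *Folr2*, and *Lyve1* keep r of at least 0.647 with each other, while *Cd163* is nearer to *F13a1* (0.58) than to *Pf4* (0.392) or *Ms4a7* (0.373).

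Among all tested genes, the complement gene *C2* was one of the 3 most like for *Mrc1* (r = 0.964, and 0.895 without both libraries), *Lyve1* (0.901 and 0.742), and *Folr2* (0.93 and 0.777). The complement gene *C4b* was so for *Pf4* (0.949 and 0.803), *Ms4a7* (0.943 and 0.814), and *Lyve1* (0.907 and 0.76). The lectin genes *Cd209b* and *Cd209f* came near *Cd163* (0.888) and *Folr2* (0.945), and *Slc26a11* was near both (0.929 and 0.95). *Adam33* was the other gene near *Pf4* (0.949), and *B3galnt1* the other near *Cd163* (0.876). *Clec12a* ran with *AB124611* (0.944), *Lilr4b* (0.942), and *Pstpip1* (0.936), and these barely changed without both libraries (0.941, 0.935, and 0.945). *F13a1* was nearest to *Cited2* (0.862), *Fbxo22* (0.856), and *D7Ertd443e* (0.853), *Stab1* to *Telo2* (0.953), *Cant1* (0.952), and *Pnpla7* (0.945), and *Cbr2* to *Zmynd15* (0.811), *Thumpd2* (0.797), and *G530011O06Rik* (0.775).

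A longer list of 35 border macrophage genes had 31 tested, of which 2 were called higher and 5 lower than CON (median −0.02), and 2 higher and 6 lower than MAL (median −0.26). All genes tested were called at 33.1% against CON and 30.4% against MAL, at 39.1% and 35.6% without CON library 1 and MAL library 4, and at 65.7% and 60.7% with microglia marker scaling, and the list counts below are to be read against these shares. The lower genes included *Siglec1* (sialoadhesin, −1.29 against CON and −1.65 against MAL), *Dab2* (an endocytic adaptor, −1.15 and −0.96), *Cd209a* (−0.94 and −1.19), *Wwp1* (−0.86 and −0.78), and *Colec12* (a scavenger receptor, −0.78 and −0.73). *Cd36* was lower than MAL (−0.74). The higher genes were *Fcgrt*, the neonatal Fc receptor (1.0 and 1.04), and the transcription factor gene *Maf* (0.80 and 0.61). Of the abundant genes that were not called, *Csf1r*, *Gas6*, *Hpgd*, *Tgfbi*, and *Ms4a6c* lay between −0.16 and 0.57 against CON. Leaving out CON library 1 and MAL library 4 gave 7 higher and 3 lower than CON and 4 higher and 5 lower than MAL, and scaling to microglia markers 0 higher and 18 lower. *Vsig4* and *Marco*, both below 1 CPM in every library, were not tested.

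Lists of genes with related functions were counted beside the members. In the heme and iron list beside *Cd163*, 1 of 12 genes was called, the iron exporter *Slc40a1*, which rose (0.84 against CON) but with microglia marker scaling 0 were called higher and 8 lower (beside 65.7% of all genes). In the folate list beside *Folr2*, the receptor *Folr1* (−1.77) fell and the carrier *Slc46a1* rose (0.93), and *Folr1* is also a choroid plexus marker. In the hyaluronan list beside *Lyve1*, *Hyal1* fell (−1.93) and *Hyal2* rose (0.71) against CON, and *Cemip* fell against MAL (−1.48). Of 16 scavenger receptor genes tested, 4 were called lower and 1 higher than CON, among the lower *Scara5* (−2.62) and *Megf10* (−1.0). Of 14 inhibitory receptor genes beside *Clec12a*, 6 were called higher and 0 lower than CON, led by *Siglece* (1.34), *Sirpa* (1.33), and *Clec4a2* (0.88), and with microglia marker scaling 0 were higher and 5 lower (beside 65.7% of all genes). Against MAL 4 were called higher and 1 lower, *Clec4a1* (−0.70), and without CON library 1 and MAL library 4 the counts were 7 higher and 0 lower than CON and 7 higher and 1 lower than MAL. The MHC class II list, which some border macrophages express, was split against CON, with *Ciita* lower (−1.89) and *H2-DMa* (0.95) and *H2-DMb1* (0.76) higher, and against MAL 5 of 7 were called lower, with *Ciita* at −2.55, and *H2-DMa* higher (0.75). MAL library 4 had a summed CPM of this list of 4343 against 1669 to 2627 in the other MAL libraries, and without it and CON library 1 the counts against MAL were 3 lower and 2 higher.

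Among the marker lists of other cells, most choroid plexus, lymphatic endothelium, and neutrophil genes were called against CON. The further lists below were called nearer to, or less often than, the 33.1% of all genes tested. All 12 choroid plexus markers were called lower than CON (median −2.55), with *Ttr* at −2.28, *Kl* at −2.83, and *Clic6* at −2.86, and their summed CPM was 1783 to 16684 in MAL-BG against 14046 to 54475 in CON. Of 4 lymphatic endothelium genes, which matter because they share *Lyve1*, 3 were called lower (*Prox1* −2.01, *Pdpn* −2.03, *Reln* −2.45), *Flt4* was at 0.20, and *Ccl21a* was at 0 counts in every library. Neutrophil markers were called higher for 11 of 13 (*S100a8* 4.39, *S100a9* 4.21, *Ltf* 5.64). MAL-BG library 5 stood far above the other MAL-BG libraries, with *S100a9* at 3831 CPM against 72 to 951 and *Ltf* at 1926 against 15.6 to 476, and without it 11 of 13 were called higher, *S100a9* at 2.95 and *Ltf* at 4.39. Of the 14 genes in the monocyte list, 4 were lower (*Ace* −2.11, *Vcan* −1.76, *Nr4a1* −1.34, *Treml4* −1.05). The list's 1 higher gene was *Cd177* (2.48, with 256 CPM in MAL-BG library 5 against 3.68 to 51.3 in the others). It was highest in MAL-BG libraries 5 and 7, as were *S100a8*, *S100a9*, and *Ltf* of the neutrophil list, and whether it came from monocytes was not tested. *Cd177* was not called without that library (1.14, adjusted p = 0.154) or without CON library 1 and MAL library 4 (2.23, adjusted p = 0.0913). *Ly6c2*, *Ccr2*, and *Plac8* were at 0.88, −0.14, and −0.22 against CON. *Ccr2* was lower than MAL (−1.02). Brain endothelium had 2 of 10 called higher (*Cldn5* 1.58, *Pecam1* 0.77), with *Flt1* at 0.13. Meningeal fibroblast genes had 3 of 10 called lower (*Igfbp2* −1.96), with *Col1a1*, *Col1a2*, and *Dcn* at −0.07, −1.01, and 0.15. In the dendritic cell list 3 of 9 were called lower, among them *Zbtb46* (−0.75) and *Ccr7* (−1.64), and 1 higher, while *Flt3* was at −0.62, and without CON library 1 and MAL library 4 the counts were 2 lower and 2 higher. In the platelet list 1 of 6 was called higher, *Gp9* (0.69), with *Itga2b* at −0.28 and *Ppbp* at 1.2. The part of these cells in the member values was not tested.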

How the data were processed

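CD11b+ brain cells of 16 mice were sequenced by the authors from stranded poly(A) libraries, aligned with STAR to GRCm38.p6, and counted with HTSeq. The deposited table holds raw counts per gene, not normalized. The counting mode, strand option, and annotation are not given in the sources used here. Column names give the group and a running number that matches no sample title, so numbers only name libraries. Totals ran from 10312703 to 18705202 counts, and all MAL-BG totals were above all others. Replicates differed by more than counting noise, with a chi-square of 9.98 or more for each degree of freedom.

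The 10 genes and all lists were chosen with earlier results of these data known. The 14565 genes that exceeded 10 counts in 4 or more libraries entered edgeR 4.0.16 (quasi-likelihood, TMM, 3 groups in 1 fit, Benjamini-Hochberg adjustment over all genes) in R 4.3.3, and DESeq2 1.42.0 was an alternative. The study's code has a batch term, but no label names a batch, so none was fitted. Log2 CPM used a prior count of 2. Exon lengths and overlaps came from GENCODE M21, and promoters from RefSeq. The steps were tested on simulated data. Genes outside the 10 were named by rule, namely called genes of the longer border macrophage list with its 6 most abundant others, up to 3 called genes of each pathway list, the first 3 genes and the largest call of each cell type list, and the 3 genes most like each member. A few genes picked by this rule are left out here. List genes that had no row under their listed name were not analysed here. Other scalings, filters, offsets for gene length and GC content, thinning, fits of 2 groups, and each library left out in turn were tried.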

Additional observations from a re-analysis of the deposited data

Results flagged for a closer look

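In 33 sets of values (the CPM of each gene and of the summed 10 genes, in each group), the highest library's gap to its neighbour, divided by the group's range, was above Dixon's 95% critical value in 11. Chance gives about 1 in 20 for independent sets. These sets share their libraries and the sum holds the genes, so the count cannot be weighed against that rate. Of the 11 flagged values, 9 are CON library 1 or MAL library 4. MAL library 4 was far above the next MAL library for *Mrc1* (326 against 121 CPM), *Cd163* (57.4 against 21.8), *Pf4* (107 against 39.4), *Ms4a7* (27 against 10.1), *Clec12a* (62.9 against 39.5), and the sum (2108 against 1250). CON library 1 was far above the next CON library for *Lyve1* (42.6 against 11.4), *Stab1* (1658 against 717), and the sum (2340 against 990). In MAL-BG, library 6 was far above the next for *Cd163* (32.4 against 18.3) and library 5 for *Clec12a* (99.9 against 48.7). Without MAL-BG library 6, *Cd163* was called lower than CON (−1.18, adjusted p = 0.0407 in edgeR's quasi-likelihood test), while the range over all libraries left out in turn was −1.18 to −0.15.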

How the results depend on the processing

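No paired analysis was possible because the numbers of the count table's columns match no sample label. Of 300 recomputed log2 fold changes under planned settings other than leaving out 1 library, 267 kept their direction and side of the threshold, 3 lost a call, 12 gained one, and 18 changed sign. With MAL-BG against CON, the call count of 1 became 7 under microglia marker scaling, 0 under offsets for length and GC content with scaling by mean log2 CPM, 0 to 2 with 1 library left out, 1 without CON library 1 and MAL library 4 (*Ms4a7*, not *F13a1*), and 3 without CON library 1, MAL library 4, and MAL-BG library 5. *F13a1* lost its call without CON library 1, 3, or 4 or MAL-BG library 1, 2, 3, 4, or 7 (adjusted p 0.0561 to 0.106), though it stayed at −0.98 to −0.61. With MAL-BG against MAL, the count of 2 became 8 under microglia marker scaling, 1 under those offsets with scaling, 1 to 2 with 1 library left out, 0 without CON library 1 and MAL library 4, and 1 without MAL-BG library 5 as well. The cause was not tested. With MAL against CON it was 0 in every setting. The mean summed CPM of MAL-BG moved from 1131 to 820 under microglia marker scaling.

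Signs against CON changed for *Mrc1* (0.00) to −0.02 with upper-quartile scaling, −0.81 with microglia markers, and −0.01 with a stricter filter or 2 groups, for *Ms4a7* (0.08) to −0.72 with microglia markers and −0.02 with offsets, for *Clec12a* (0.62) to −0.23 with microglia markers, and for *Stab1* (−0.15) to 0.23 with offsets and 0.45 with offsets and scaling. Against MAL they changed with offsets and scaling for *Mrc1* (0.06), *Ms4a7* (0.12), and *Stab1* (0.39, and 0.18 with offsets alone), and for *Clec12a* with microglia markers (−0.66). For MAL against CON, *Stab1* (0.00) came to 0.00 with upper-quartile scaling, 0.06 with either offset, and 0.01 with 2 groups. Without CON library 1 and MAL library 4, and then also without MAL-BG library 5, signs against CON changed for *Lyve1* (0.88 and 0.94), *Pf4* (0.01 and 0.07), *Stab1* (0.42 and 0.45), and *Folr2* (0.23 and 0.26), against MAL for *Mrc1* (0.40 and 0.46), *Lyve1* (0.17 and 0.24), *Pf4* (0.11 and 0.16), *Ms4a7* (0.52 and 0.60), *Stab1* (0.06 and 0.10), *Folr2* (0.10 and 0.13), and *Clec12a* (−0.06 in the latter), and for MAL against CON for *Cd163* (0.11) and *Stab1* (0.35). With 1 library left out, ranges that crossed 0 were, against CON, *Mrc1* −0.20 to 0.43, *Lyve1* −0.54 to 0.78, *Ms4a7* −0.18 to 0.66, *Stab1* −0.30 to 0.32, and *Folr2* −0.68 to 0.13, and against MAL, *Mrc1* −0.37 to 0.33, *Lyve1* −0.67 to 0.11, *Pf4* −0.81 to 0.04, *Ms4a7* −0.18 to 0.45, *Stab1* −0.21 to 0.00, *Folr2* −0.71 to 0.03, and *Clec12a* −0.32 to 0.26. For MAL against CON they were *Mrc1* −0.34 to 0.65, *Cd163* −0.68 to 0.58, *Lyve1* −0.37 to 1.23, *Pf4* −0.81 to 0.51, *F13a1* −0.01 to 0.30, *Ms4a7* −0.38 to 0.71, *Stab1* −0.16 to 0.47, and *Folr2* −0.48 to 0.65.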
